A study of Homo sapiens with 16 samples.

Results

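The TGF-beta branch of the chromatin data is described here for 10 genes of the 19962 protein-coding genes of the annotation, chosen by name for their place in the pathway: the ligand genes TGFB1, TGFB2 and INHBA, the receptor genes TGFBR1 and TGFBR2, the receptor-regulated SMAD genes SMAD2 and SMAD3, the inhibitor genes SMAD7 and SKIL, and the target gene TGFBI. The rule uses names and no measured value, although earlier results of these data were known when the genes were picked. H3K27ac, acetylation of histone H3 at lysine 27, a mark of active promoters and enhancers, was profiled by ChIP-seq in MDA-MB-231 and Hs578T, both human triple-negative breast cancer cell lines with mesenchymal traits. Each line was studied as control and as Fn14KO cells, in which the TWEAK receptor Fn14 (gene TNFRSF12A) had been disrupted with 2 guide RNAs delivered in the inducible Cas9 vector TLCV2, and each of these was left untreated or given 10 ng/ml of recombinant TWEAK, a cytokine of the TNF family, for 48 h. All 4 conditions were serum-starved for 8 h beforehand, and the cytokine was replenished after 24 h. With 2 lists of enriched regions (peaks) per condition, this gave 16 lists in 8 groups, and p-values measure the spread between the 2 lists of a group, which the study's methods describe as biological replicates.

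TGF-beta and activin ligands are secreted as dimers that bind a type II receptor, which recruits and phosphorylates a type I receptor. The activated type I receptor phosphorylates SMAD2 and SMAD3, which enter the nucleus with SMAD4 and regulate target genes, often beside lineage-specific or AP-1 factors. SMAD7 and SKIL are themselves induced by the pathway and hold it back, SMAD7 at the receptor and SKIL at the SMAD complex. In breast carcinoma the pathway is known both for growth arrest in early lesions and for invasion and the epithelial-to-mesenchymal transition in advanced ones. H3K27ac marks regulatory DNA, and its level says nothing directly about the amount of protein made.

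The lists held 39544 to 47197 peaks over 64.2 to 88.9 Mb, with a median fold enrichment over input of 4.998 to 5.89. The 4 MDA-MB-231 Fn14KO lists had the lowest median −log10 q, 5.79 to 7.69 against up to 10.8 over all lists, and the untreated pair among them held 46295 and 39544 peaks. The files keep no read counts, so the depth behind each list is unknown and no counting interval can be given. At the start site of TNFRSF12A itself each list had 1 peak, whose fold enrichment was 32.6 to 38.2 in the 8 control lists and 16.2 to 22.3 in the 8 Fn14KO lists. All Fn14KO values thus lay below all control values, in both lines, although a histone mark does not show that the protein was lost. For that, the study's methods report western blots and Sanger sequencing of the knockout cells of both lines. No list had a peak within 2 kb of the start site of CDH1, ESR1, PGR, KRT5 or PTPRC (E-cadherin, the oestrogen and progesterone receptors, a basal keratin and a leukocyte marker), and all 16 had one at VIM (vimentin), EPCAM, ERBB2 and GATA3, genes of mesenchymal, epithelial, HER2-positive and luminal cells. Of the 3 receptor genes by whose absence triple-negative tumours are defined, 2 therefore lacked a start-site peak, while ERBB2 had one. Lack of a start-site peak did not mean lack of acetylation nearby. In the gene body extended by 50 kb, PTPRC had 5 to 8 peaks per list, CDH1 6 to 16 and ESR1 3 to 11. These may belong to neighbours, and PGR and KRT5 had no peak there in any list.

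In hg38, with GENCODE 44 gene bodies, TGFB1 lies at chr19:41301587-41353922 on the minus strand, TGFB2 at chr1:218345336-218444619 on the plus strand and INHBA at chr7:41667168-41705834 on the minus strand. The receptor genes lie at chr9:99104038-99154192 (TGFBR1, plus strand) and chr3:30606601-30694142 (TGFBR2, plus strand). SMAD2 lies at chr18:47808957-47931146 and SMAD7 at chr18:48919853-48950965, both on the minus strand, SMAD3 at chr15:67063763-67195173 on the plus strand, SKIL at chr3:170357342-170396835 and TGFBI at chr5:136028988-136063818, both on the plus strand. Peaks were measured within 2 kb of each start site and in a window of the gene body extended by 50 kb on either side. The TGFB1 window also holds the start sites of 7 other protein-coding genes and the SKIL window those of 2, so peaks there may belong to neighbours, while the other 8 windows hold none. Peaks in those 8 may still belong to neighbours. Some lay inside another gene, such as COL15A1 near TGFBR1, or nearest to a start outside the window, such as ALG2 near TGFBR1 and IQCH near SMAD3. Merging the peaks of all lists gave 55219 regions that 2 or more lists shared, of which 92 lay in the 10 windows, and they are numbered here by ascending coordinate within each window. Of the 92, 53 had a peak in every list, 57.6% against 51.3% of all regions. Start-site peaks were present in all 16 lists for 9 of the 10 genes, and at TGFBI in none. The nearest region upstream of the TGFBI start lay 7.40 kb away and had a peak in every list. Downstream the nearest lay 3.24 kb away, with a peak in only 4 lists, all Fn14KO, and the next, 6.44 kb away, had one in every list.

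The core of each of 4 regions, the 300 bases centred on the stretch that peaks of the most lists cover, and the 250 bases before the SMAD7 start site are given because these regions carry the TWEAK results below and SMAD7 is the inhibitor that fell, and they read as follows from 5′ to 3′. Regions are given on the plus strand of hg38, and the SMAD7 promoter on the minus strand as RefSeq gives it for GRCh38.p14. Capitals mark matches on either strand to the AP-1 site TGANTCA, to the short SMAD motif CAGAC, to the palindromic SMAD-binding element GTCTAGAC or to the NF-kappa-B consensus, and no printed run held TGANTCA or GTCTAGAC. CAGAC and GTCTAGAC share their last 4 letters, and neither contains the other.
TGFB1 region 3, chr19:41298656-41298955, over an exon of HNRNPUL1: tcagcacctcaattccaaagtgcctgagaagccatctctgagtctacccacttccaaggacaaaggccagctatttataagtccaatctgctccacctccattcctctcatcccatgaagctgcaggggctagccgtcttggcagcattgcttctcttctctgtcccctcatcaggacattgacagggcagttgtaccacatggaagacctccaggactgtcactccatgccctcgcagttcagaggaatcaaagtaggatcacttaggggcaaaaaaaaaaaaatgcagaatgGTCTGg
TGFBR1 region 4, chr9:99181738-99182037, intergenic: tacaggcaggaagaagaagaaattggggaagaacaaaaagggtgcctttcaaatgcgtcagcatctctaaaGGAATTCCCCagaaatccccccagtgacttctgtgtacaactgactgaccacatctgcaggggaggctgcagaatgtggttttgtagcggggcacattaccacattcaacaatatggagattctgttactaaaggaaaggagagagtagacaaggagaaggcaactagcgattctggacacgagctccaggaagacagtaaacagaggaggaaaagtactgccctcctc
TGFBR2 region 10, chr3:30681437-30681736, over an exon of TGFBR2: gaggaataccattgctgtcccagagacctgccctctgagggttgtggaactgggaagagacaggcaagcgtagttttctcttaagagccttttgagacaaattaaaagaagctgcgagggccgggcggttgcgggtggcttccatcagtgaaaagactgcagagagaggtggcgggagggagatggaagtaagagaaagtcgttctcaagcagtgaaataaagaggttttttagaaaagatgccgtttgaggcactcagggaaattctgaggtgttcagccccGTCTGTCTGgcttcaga
SMAD7 region 9, chr18:48997728-48998027, intergenic: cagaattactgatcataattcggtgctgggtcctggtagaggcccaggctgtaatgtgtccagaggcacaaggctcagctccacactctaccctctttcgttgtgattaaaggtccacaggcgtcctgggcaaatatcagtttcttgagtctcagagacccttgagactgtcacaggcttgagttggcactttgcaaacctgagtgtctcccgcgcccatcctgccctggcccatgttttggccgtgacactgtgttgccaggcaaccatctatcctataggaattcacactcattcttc
SMAD7 promoter, chr18:48950966-48951215: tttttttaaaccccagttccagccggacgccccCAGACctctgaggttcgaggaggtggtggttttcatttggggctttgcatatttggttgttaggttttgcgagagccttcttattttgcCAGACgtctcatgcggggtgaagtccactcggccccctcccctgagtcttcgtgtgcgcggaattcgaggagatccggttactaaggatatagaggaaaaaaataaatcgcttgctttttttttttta
None of the 4 region cores overlapped an annotated untranslated part of a transcript. TGFB1 region 3, which fell most with TWEAK, held 1 short SMAD motif. TGFBR1 region 4, which appeared with TWEAK in control cells, held 1 match to the NF-kappa-B consensus, TGFBR2 region 10 held 2 short SMAD motifs, and SMAD7 region 9 held no match. Among the cores of all 55219 regions the AP-1 site was present in 22.7%, the short SMAD motif in 44.9%, the NF-kappa-B consensus in 5.74% and GTCTAGAC in 0.161%. The 92 cores of the 10 windows gave 20.7%, 54.3%, 8.70% and 0%, shares that describe letters and not binding. Of 35116 promoters in RefSeq, taken as the 250 bases before the start, 6.57%, 38.0%, 5.21% and 0.182% held the same 4 motifs.

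To learn whether TWEAK moves acetylation around the pathway genes, treated and untreated control cells were compared by the length covered by peaks in each window, as log2(covered bp + 1000), over both lines. TGFBR1, the type I receptor gene, gained covered length, and SMAD7 and TGFBI, the inhibitor and the target, lost it. That is 1 gene of 10 higher and 2 of 10 lower, against 6.45% higher and 11.5% lower (18% in either direction) among the 16613 genes tested with limma. Their median change was -0.16 on the log2 scale, against -0.05 over all genes. In Fn14KO cells 0 of 10 genes passed the limma test in either direction, with 0 also at an unadjusted p under 0.05. None of the 16613 genes passed it there either (0%), and 253 had an unadjusted p under 0.05. The TWEAK effect in control minus that in Fn14KO cells was tested as an interaction, and 1 of 10 genes, TGFBR1, passed, against 4.63% of all genes. No gene's TWEAK effect in control cells differed between the lines by that test (0 of 10, 0%), with 0 of 10 members and 482 of all genes at an unadjusted p under 0.05.

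**Figure D1:**
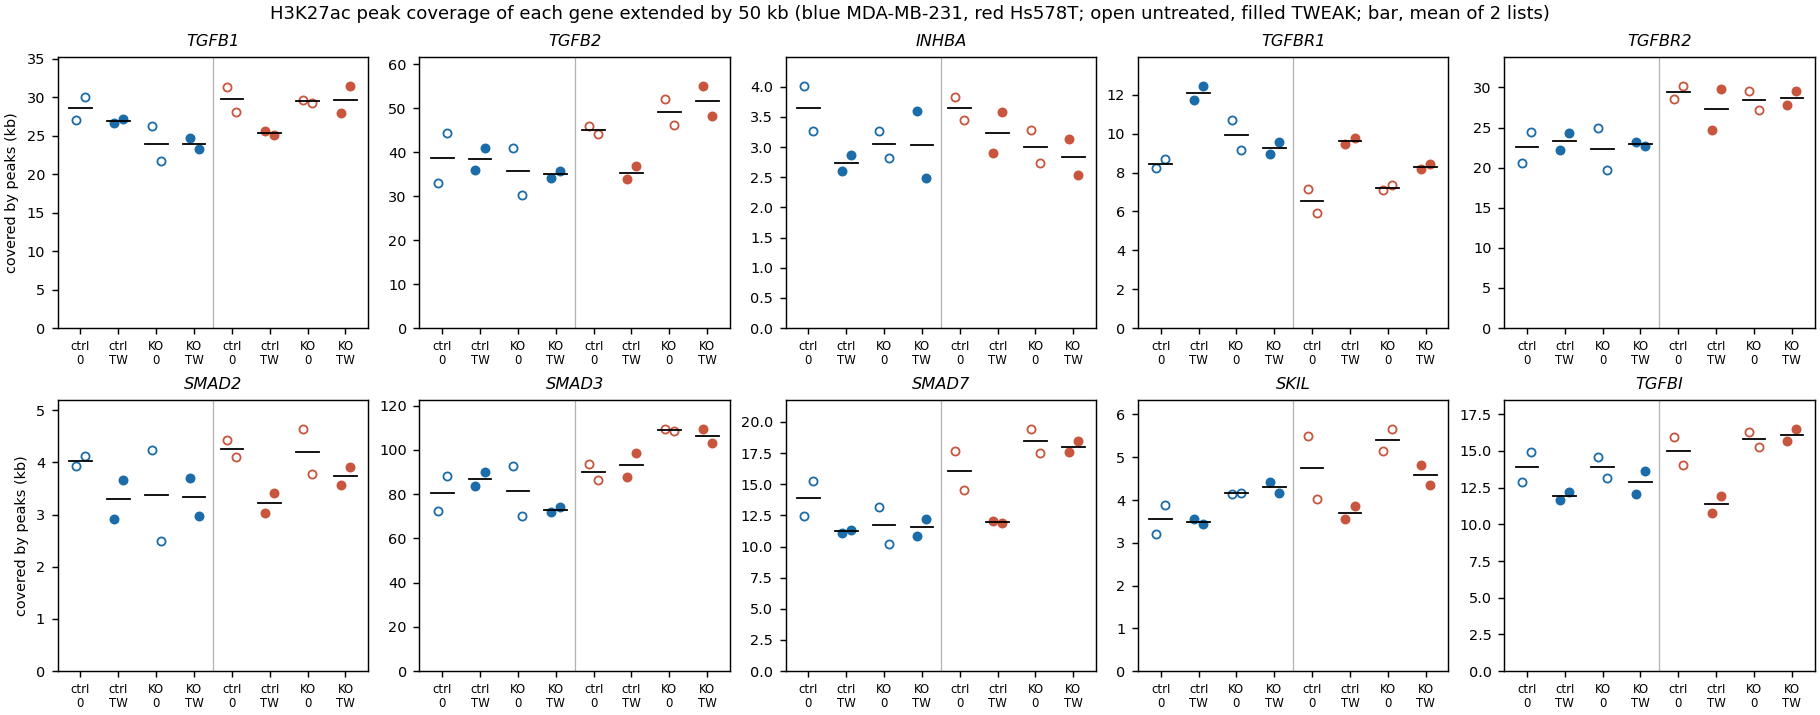
Covered length (kb) of H3K27ac peaks in the window of each of the 10 genes, 1 point per list, by line, genotype and treatment, with 2 lists per group and a bar at their mean. TGFBR1 was the gene whose TWEAK-treated control lists lay above the untreated ones in both lines, by 0.48 on the log2 scale, while no such shift passed the test in Fn14KO lists.

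Covered length adds up regions that may move in opposite directions, so the highest fold enrichment of each region with a peak in every list was also tested, in a second limma fit chosen after seeing the data, with lists centred on their median. Each peak carries a single fold enrichment for its whole length. The value may therefore also depend on how wide the peak was called, which was not tested. Of the 53 regions in the 10 windows, 9 rose and 17 fell with TWEAK in control cells, 49.1% in all against 47% of 28337 regions (22.8% higher, 24.2% lower). This share is close to that of all regions, so the windows did not stand out by the number of changes. The changes ran from -1.75 to 1.18 with a median of -0.04, against -0.02 over all regions. In Fn14KO cells 0 of 53 regions passed with TWEAK by limma (0% of all regions), with 3 of 53 and 1105 of all at an unadjusted p under 0.05. The interaction was called at 13 of 53 regions, 6 higher and 7 lower in control than in Fn14KO cells, 24.5% against 32.7% of all. Within a line, the TWEAK change in control cells passed at 19 of 53 regions in MDA-MB-231 (35.6% of all regions) and at 13 of 53 in Hs578T (29.5%), and the interaction at 9 of 53 in each (21.9% and 14.6%). Of the 26 TWEAK calls, 13 were kept whichever single list was left out, and these are described gene by gene below. The other 13 follow together after them.

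**Figure D2:**
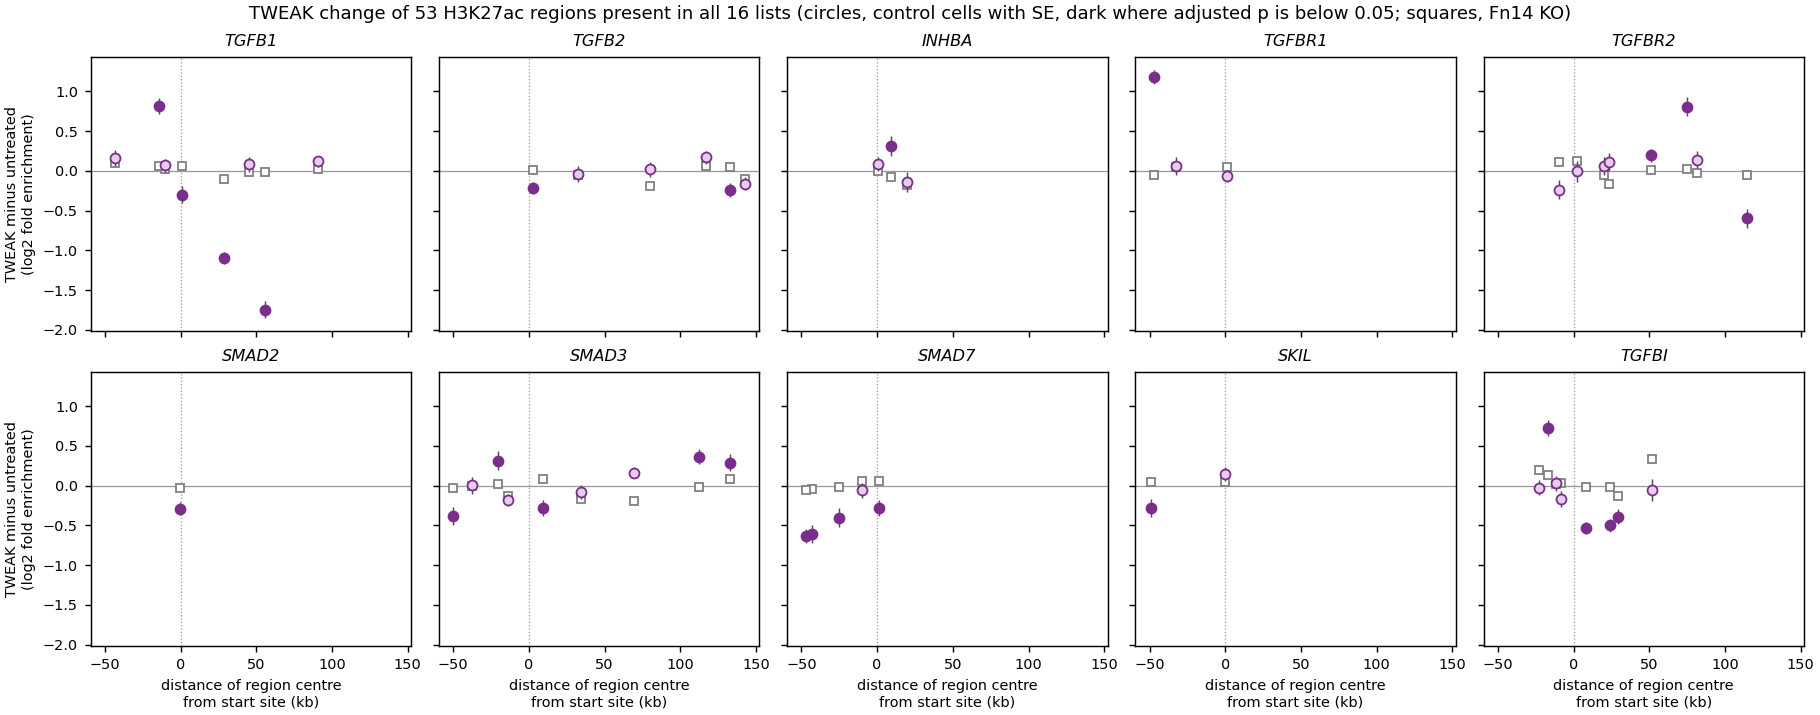
Change in fold enrichment with TWEAK (log2) of each of the 53 regions, against the distance of its centre from the gene's start site (kb), as circles with bars of 1 standard error for control cells, dark where the adjusted p was under 0.05, and as squares without bars for Fn14KO cells. The control values spread from -1.75 at TGFB1 region 3 to 1.18 at TGFBR1 region 1, while those in Fn14KO cells ran from -0.19 to 0.33.

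TGFB1 encodes the prototype TGF-beta ligand. Peaks in the TGFB1 window covered 27.1 and 30.1 kb without and 26.6 and 27.2 kb with TWEAK in MDA-MB-231 control lists, and 26.2 and 21.7 kb without and 24.7 and 23.3 kb with it in Fn14KO lists. Hs578T gave 31.4 and 28.1 kb without and 25.7 and 25.2 kb with TWEAK in control lists, and 29.7 and 29.3 kb without and 27.9 and 31.5 kb with it in Fn14KO lists. The groups overlapped in MDA-MB-231, and in Hs578T the TWEAK-treated control lists lay below the untreated ones. The mean change in control cells, -0.15 ± 0.08 (adjusted p = 0.190), did not pass the test. The TGFB1 window held 8 to 10 peaks per list with a highest fold enrichment of 14.8 to 22.7, and the start site had 980 to 2494 bp of peak with a fold enrichment of 4.03 to 7.59.

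Within this window 3 regions changed strongly, in opposite directions. TGFB1 region 3, at chr19:41296461-41300491 and 53.4 kb downstream of the TGFB1 start, inside the body of the neighbour HNRNPUL1, had a fold enrichment of 12.3 and 11.8 without and 3.60 and 3.22 with TWEAK in MDA-MB-231 control lists, and of 5.54 and 4.49 without and 5.62 and 4.67 with it in Fn14KO lists. Hs578T gave 11.1 and 7.52 without and 3.08 and 3.26 with TWEAK in control lists, and 10.1 and 11.5 without and 9.71 and 9.96 with it in Fn14KO lists. Every TWEAK-treated control list lay below every untreated one in its line, and in MDA-MB-231 the Fn14KO lists lay between. The change was -1.75 ± 0.11 (adjusted p = 2.2e-12) in control cells and -0.01 ± 0.11 (adjusted p = 1.00) in Fn14KO cells, and the interaction was -1.74 ± 0.15 (adjusted p = 4.8e-09). Only 4 of 28337 regions, itself included, fell as far in control cells.

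TGFB1 region 5, at chr19:41320939-41329715 inside TGFB1, 24.2 kb from its start, and also inside CCDC97, had a fold enrichment of 19.0 and 18.8 without and 8.63 and 8.26 with TWEAK in MDA-MB-231 control lists, and of 11.7 and 9.19 without and 9.48 and 8.27 with it in Fn14KO lists. Hs578T gave 17.1 and 13.9 without and 8.02 and 8.65 with TWEAK in control lists, and 17.3 and 16.04 without and 16.3 and 15.8 with it in Fn14KO lists. The treated control lists again lay below the untreated ones in both lines, and the Fn14KO lists of Hs578T stayed near the untreated control values. It fell by 1.10 on the log2 scale in control cells (adjusted p = 2.4e-11), and the interaction was -0.99 ± 0.11 (adjusted p = 1.8e-07). TGFB1 region 8, at chr19:41366886-41368968 in TMEM91, 13.0 kb upstream of the start, had a fold enrichment of 5.92 and 6.05 without and 10.1 and 10.9 with TWEAK in MDA-MB-231 control lists, and of 6.13 and 5.12 without and 5.38 and 5.77 with it in Fn14KO lists. Hs578T gave 7.24 and 5.44 without and 13.0 and 11.6 with TWEAK in control lists, and 4.41 and 4.66 without and 4.38 and 5.13 with it in Fn14KO lists. Here the treated control lists lay above the untreated ones in both lines. The change was 0.82 ± 0.10 (adjusted p = 3.4e-07) in control cells and 0.06 ± 0.10 (adjusted p = 1.00) in Fn14KO cells, with an interaction of 0.75 ± 0.14 (adjusted p = 0.00023). The gain and the losses in the same window are set side by side in the plot of fold enrichment at 8 regions.

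**Figure D3:**
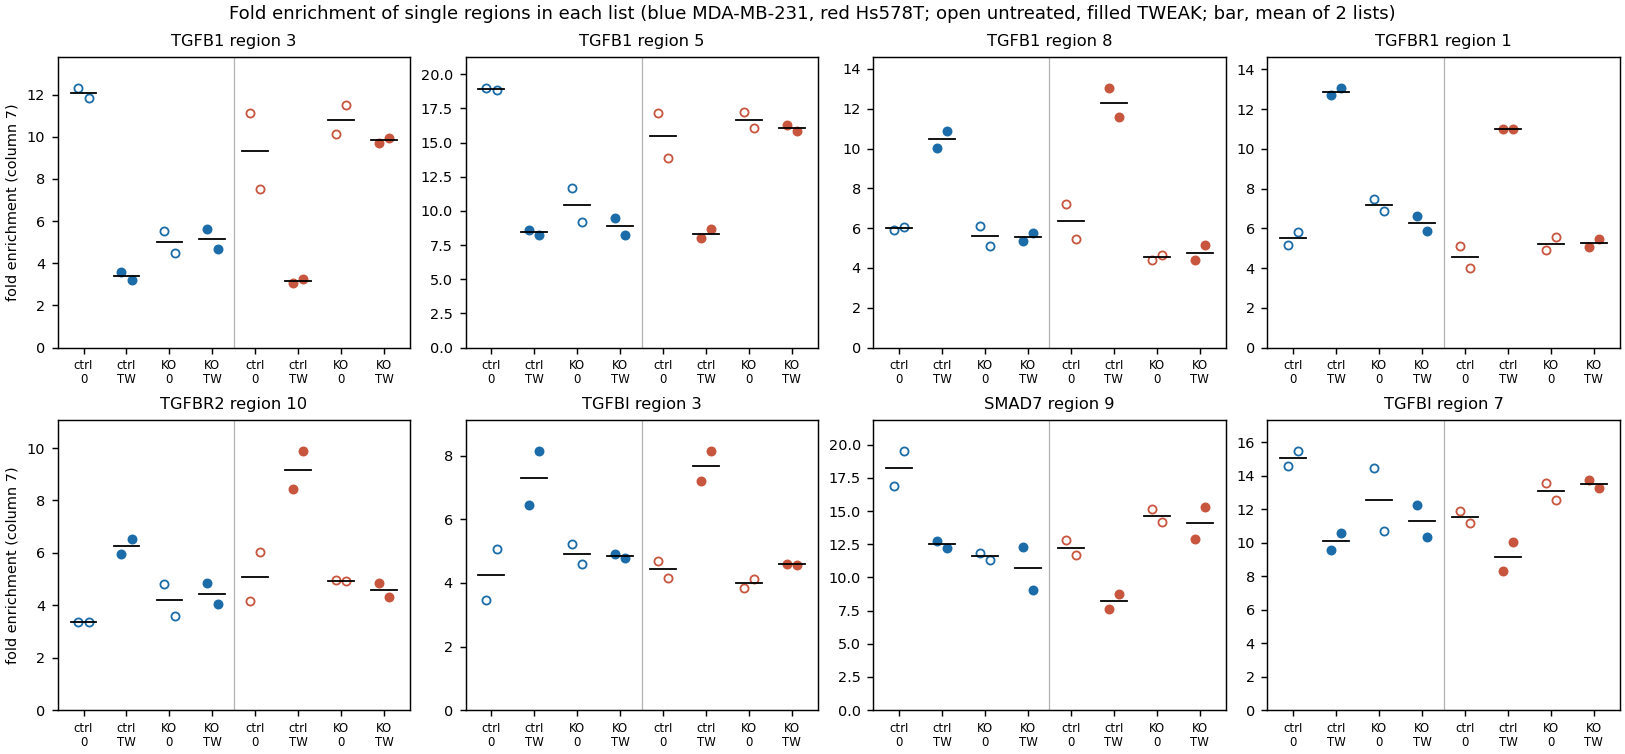
Fold enrichment over input of 8 regions near TGFB1, TGFBR1, TGFBR2, TGFBI and SMAD7, 1 point per list and 2 lists per group, in blue for MDA-MB-231 and red for Hs578T, open for untreated and filled for TWEAK, with a bar at the mean of each group. TGFB1 region 3 fell from between 7.52 and 12.3 to between 3.08 and 3.60 with TWEAK in control lists, while TGFB1 region 8 rose.

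TGFB2, a second ligand gene, had the longest row of regions, 17, of which 6 had a peak in every list. Peaks in the TGFB2 window covered 32.9 and 44.3 kb without and 35.9 and 41.0 kb with TWEAK in MDA-MB-231 control lists, and 41.0 and 30.2 kb without and 34.2 and 35.7 kb with it in Fn14KO lists. Hs578T gave 45.8 and 44.02 kb without and 33.8 and 36.8 kb with TWEAK in control lists, and 52.0 and 46.0 kb without and 55.0 and 48.1 kb with it in Fn14KO lists. Groups overlapped in MDA-MB-231, and in Hs578T the treated control lists lay below all other Hs578T lists. The mean change in control cells, -0.17 ± 0.10 (adjusted p = 0.306), did not pass. The TGFB2 window held 12 to 19 peaks per list with a highest fold enrichment of 11.9 to 19.4, and the start site had 2912 to 3704 bp of peak with a fold enrichment of 8.01 to 13.7. INHBA encodes the beta A subunit of activin A. Peaks in the INHBA window covered 4.01 and 3.27 kb without and 2.61 and 2.86 kb with TWEAK in MDA-MB-231 control lists, and 3.27 and 2.82 kb without and 3.60 and 2.48 kb with it in Fn14KO lists. Hs578T gave 3.83 and 3.46 kb without and 2.91 and 3.58 kb with TWEAK in control lists, and 3.28 and 2.74 kb without and 3.14 and 2.54 kb with it in Fn14KO lists. The treated control lists lay below the untreated ones in MDA-MB-231 and overlapped them in Hs578T, and the change, -0.22 ± 0.11 (adjusted p = 0.182), did not pass. The INHBA window held 3 to 4 peaks per list with a highest fold enrichment of 5.99 to 8.997, and the start site had 1078 to 2273 bp of peak with a fold enrichment of 5.99 to 8.997, with 3 regions, 1 over the start site and 2 inside the gene, all present in every list.

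TGFBR1 encodes the type I receptor. Peaks in the TGFBR1 window covered 8.21 and 8.72 kb without and 11.8 and 12.45 kb with TWEAK in MDA-MB-231 control lists, and 10.7 and 9.17 kb without and 8.96 and 9.60 kb with it in Fn14KO lists. Hs578T gave 7.17 and 5.93 kb without and 9.47 and 9.80 kb with TWEAK in control lists, and 7.10 and 7.35 kb without and 8.16 and 8.42 kb with it in Fn14KO lists. In control cells of both lines each treated list lay above each untreated one, and in Fn14KO cells the groups overlapped in MDA-MB-231 and kept the same order in Hs578T. The log2 change was 0.48 ± 0.08 (adjusted p = 0.00077) over both lines, 0.47 ± 0.11 (adjusted p = 0.0194) in MDA-MB-231 and 0.50 ± 0.11 (adjusted p = 0.0185) in Hs578T. In Fn14KO cells it was 0.05 ± 0.08 (adjusted p = 1.00). Within a line it was the 1 gene of 10 that passed, against 7.01% of all genes in MDA-MB-231 and 4.99% in Hs578T. The call in control cells over both lines held whichever single list was left out. The interaction was 0.44 ± 0.11 (adjusted p = 0.0354), and it missed the threshold without any 1 of 11 lists, MDA-MB-231 control TWEAK replicate 1 or 2, MDA-MB-231 Fn14KO TWEAK replicate 1 or 2, Hs578T control untreated replicate 2, Hs578T control TWEAK replicate 1 or 2, Hs578T Fn14KO untreated replicate 1 or 2 or Hs578T Fn14KO TWEAK replicate 1 or 2 (adjusted p = 0.0598 to 0.102). It also missed the threshold under 6 alternatives: the 10 kb window (0.02), start-site cover (0.04), highest fold enrichment (0.07), only the peaks whose −log10 q reached the median of all lists, called the stronger q values here (0.60), the 100 kb window (0.40, adjusted p = 0.0513) and the replicate block (adjusted p = 0.0588). The TGFBR1 window held 3 to 5 peaks per list with a highest fold enrichment of 9.95 to 16.7, and the start site had 1988 to 2565 bp of peak with a fold enrichment of 9.01 to 16.7. The gain lay away from the gene: with the body extended by only 10 kb the change was -0.05 and the call was lost, and with the stronger q values alone it was 0.72 and also missed the threshold (adjusted p = 0.0846).

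TGFBR1 region 1, at chr9:99053790-99060023, 44.02 kb upstream in the collagen gene COL15A1, had a fold enrichment of 5.18 and 5.84 without and 12.7 and 13.0 with TWEAK in MDA-MB-231 control lists, and of 7.46 and 6.87 without and 6.63 and 5.87 with it in Fn14KO lists. Hs578T gave 5.10 and 4.02 without and 11.0 and 11.0 with TWEAK in control lists, and 4.90 and 5.57 without and 5.04 and 5.48 with it in Fn14KO lists. All treated control lists lay above all untreated ones of their line, and no Fn14KO list reached them. The change was 1.18 ± 0.09 (adjusted p = 1.9e-10) in control cells, a rise matched or passed by 287 of 28337 regions, itself included. It was -0.06 ± 0.09 (adjusted p = 1.00) in Fn14KO cells, and the interaction was 1.24 ± 0.13 (adjusted p = 1.1e-07). TGFBR1 region 4, at chr9:99180199-99183072 and 76.2 kb downstream of the start in intergenic DNA, had a peak in both treated control lists of both lines and in no untreated control list, and in 1 further list, MDA-MB-231 Fn14KO untreated replicate 1. Its fold enrichment was 10.1 and 10.1 in the treated control lists of MDA-MB-231, 6.28 and 7.34 in those of Hs578T and 2.85 in that further list. TGFBR1 region 5, 79.8 kb downstream, was seen in the 2 treated MDA-MB-231 control lists only. The start site nearest to TGFBR1 regions 4 and 5 was that of ALG2, not of TGFBR1. The region over the TGFBR1 start site itself changed by -0.07 ± 0.08 (adjusted p = 0.534).

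TGFBR2 encodes the type II receptor that binds TGF-beta first. Peaks in the TGFBR2 window covered 20.6 and 24.4 kb without and 22.2 and 24.3 kb with TWEAK in MDA-MB-231 control lists, and 25.0 and 19.6 kb without and 23.1 and 22.8 kb with it in Fn14KO lists. Hs578T gave 28.6 and 30.2 kb without and 24.7 and 29.9 kb with TWEAK in control lists, and 29.6 and 27.2 kb without and 27.8 and 29.6 kb with it in Fn14KO lists. Groups overlapped, and the change in control cells was -0.03 ± 0.09 (adjusted p = 0.857). The TGFBR2 window held 10 to 15 peaks per list with a highest fold enrichment of 10.1 to 14.03, and the start site had 2611 to 3573 bp of peak with a fold enrichment of 6.28 to 10.2. TGFBR2 region 10, at chr3:30679116-30683407 within the gene, 72.5 kb from its start, had a fold enrichment of 3.35 and 3.38 without and 5.97 and 6.53 with TWEAK in MDA-MB-231 control lists, and of 4.80 and 3.59 without and 4.84 and 4.03 with it in Fn14KO lists. Hs578T gave 4.16 and 6.04 without and 8.44 and 9.89 with TWEAK in control lists, and 4.97 and 4.92 without and 4.86 and 4.32 with it in Fn14KO lists. The treated control lists lay above the untreated ones in both lines. The change was 0.81 ± 0.12 (adjusted p = 2.7e-06) in control cells and 0.03 ± 0.12 (adjusted p = 1.00) in Fn14KO cells, and the interaction was 0.78 ± 0.16 (adjusted p = 0.00061).

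TGFBR2 region 14, at chr3:30720196-30722529, 114 kb downstream of the start and beyond the end of the gene, had a fold enrichment of 5.11 and 6.92 without and 4.06 and 3.80 with TWEAK in MDA-MB-231 control lists, and of 4.94 and 5.78 without and 4.16 and 5.30 with it in Fn14KO lists. Hs578T gave 6.33 and 7.06 without and 4.54 and 5.27 with TWEAK in control lists, and 5.16 and 5.38 without and 4.84 and 5.85 with it in Fn14KO lists. In this region the treated control lists lay below the untreated ones of their line. The change was -0.60 ± 0.12 (adjusted p = 0.00022) in control cells and -0.05 ± 0.12 (adjusted p = 1.00) in Fn14KO cells. Its interaction, -0.55 ± 0.17 (adjusted p = 0.0150), missed the threshold without MDA-MB-231 Fn14KO untreated replicate 1 or MDA-MB-231 Fn14KO TWEAK replicate 2 (adjusted p = 0.0549 to 0.0566). TGFBR2 region 12, 84.9 kb into the gene, had a peak in both untreated and no treated MDA-MB-231 control list.

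SMAD2 and SMAD3 encode the SMADs that the receptors phosphorylate. Peaks in the SMAD2 window covered 3.94 and 4.12 kb without and 2.92 and 3.67 kb with TWEAK in MDA-MB-231 control lists, and 4.23 and 2.50 kb without and 3.69 and 2.98 kb with it in Fn14KO lists. Hs578T gave 4.43 and 4.10 kb without and 3.03 and 3.42 kb with TWEAK in control lists, and 4.64 and 3.77 kb without and 3.57 and 3.91 kb with it in Fn14KO lists. With 3 regions, 1 of them in every list, SMAD2 had little cover beyond its start site, and its change in control cells was -0.28 ± 0.12 (adjusted p = 0.127), which did not pass although the treated control lists lay below the untreated ones in both lines. The Fn14KO groups overlapped. The SMAD2 window held 1 to 3 peaks per list with a highest fold enrichment of 9.31 to 18.1, and the start site had 2277 to 3300 bp of peak with a fold enrichment of 9.31 to 18.1. SMAD3 had the longest cover of the 10 genes. Peaks in the SMAD3 window covered 72.5 and 88.1 kb without and 83.5 and 89.8 kb with TWEAK in MDA-MB-231 control lists, and 92.8 and 70.0 kb without and 71.9 and 74.2 kb with it in Fn14KO lists. Hs578T gave 93.8 and 86.5 kb without and 87.6 and 98.7 kb with TWEAK in control lists, and 109 and 108 kb without and 109 and 103 kb with it in Fn14KO lists. The groups of control cells overlapped, and the change was 0.08 ± 0.09 (adjusted p = 0.583), although with lists centred on their median it passed at 0.12 (adjusted p = 0.0137). The SMAD3 window held 13 to 23 peaks per list with a highest fold enrichment of 11.9 to 25.1, and the start site had 1699 to 2033 bp of peak with a fold enrichment of 7.64 to 12.7.

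Of the 16 regions around SMAD3, 9 had a peak in every list. SMAD3 region 12, at chr15:67169991-67182506 within the gene, 106 kb from its start, had a fold enrichment of 9.27 and 8.02 without and 12.1 and 13.4 with TWEAK in MDA-MB-231 control lists, and of 6.37 and 6.41 without and 6.66 and 5.87 with it in Fn14KO lists. Hs578T gave 8.49 and 7.23 without and 9.03 and 10.3 with TWEAK in control lists, and 9.63 and 8.42 without and 8.56 and 8.68 with it in Fn14KO lists. The treated control lists lay above the untreated ones in both lines. The change was 0.36 ± 0.09 (adjusted p = 0.00240) in control cells and -0.01 ± 0.09 (adjusted p = 1.00) in Fn14KO cells. Its interaction, 0.37 ± 0.13 (adjusted p = 0.0316), missed the threshold without any 1 of 8 lists, MDA-MB-231 control untreated replicate 2, MDA-MB-231 control TWEAK replicate 2, MDA-MB-231 Fn14KO untreated replicate 2, MDA-MB-231 Fn14KO TWEAK replicate 2, Hs578T control untreated replicate 2, Hs578T control TWEAK replicate 2, Hs578T Fn14KO untreated replicate 1 or Hs578T Fn14KO TWEAK replicate 1 (adjusted p = 0.0561 to 0.111). SMAD3 region 7, the long block at chr15:67113313-67153384, gave an interaction of 0.36 ± 0.10 (adjusted p = 0.0103), from a change of 0.16 in control cells, which did not pass (adjusted p = 0.0698), and -0.19 in Fn14KO cells, which did not pass either. SMAD3 region 14, at chr15:67191186-67194756 near the 3′ end of the gene, had a peak in both treated control lists of each line and in no untreated control list, and it was also present in both untreated and 1 treated Fn14KO list of Hs578T and in 1 untreated Fn14KO list of MDA-MB-231.

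SMAD7 encodes the inhibitory SMAD that blocks the type I receptor. Peaks in the SMAD7 window covered 12.48 and 15.2 kb without and 11.1 and 11.3 kb with TWEAK in MDA-MB-231 control lists, and 13.2 and 10.2 kb without and 10.8 and 12.2 kb with it in Fn14KO lists. Hs578T gave 17.6 and 14.6 kb without and 12.1 and 11.9 kb with TWEAK in control lists, and 19.4 and 17.5 kb without and 17.6 and 18.4 kb with it in Fn14KO lists. Treated control lists lay below untreated ones in both lines, and the Fn14KO groups overlapped. The change was -0.34 ± 0.09 (adjusted p = 0.0215) in control and -0.02 ± 0.09 (adjusted p = 1.00) in Fn14KO cells, and the interaction, -0.31 ± 0.13 (adjusted p = 0.211), did not pass, but with lists centred on their median it passed at -0.29 (adjusted p = 0.0277). The call in control cells was lost with the gene body extended by only 10 kb, at -0.26 (adjusted p = 0.217), by number of peaks at -0.10 (adjusted p = 0.544), by start-site cover at -0.50 (adjusted p = 0.0643) and with the stronger q values alone at -0.57 (adjusted p = 0.132). It was also lost without any 1 of 6 lists, MDA-MB-231 control untreated replicate 2, MDA-MB-231 control TWEAK replicate 1 or 2, Hs578T control untreated replicate 1 or Hs578T control TWEAK replicate 1 or 2 (adjusted p = 0.0584 to 0.100). The SMAD7 window held 8 to 11 peaks per list with a highest fold enrichment of 7.80 to 19.6, and the start site had 1228 to 4001 bp of peak with a fold enrichment of 5.48 to 10.7. The window around the start site, 4001 bp, was covered end to end in the 4 Hs578T Fn14KO lists.

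A pair of regions far upstream of SMAD7 fell in both lines. SMAD7 region 8, at chr18:48992955-48995019, 42.0 kb upstream, had a fold enrichment of 5.18 and 6.496 without and 4.18 and 4.54 with TWEAK in MDA-MB-231 control lists, and of 3.99 and 4.31 without and 3.66 and 3.89 with it in Fn14KO lists. Hs578T gave 6.27 and 7.04 without and 3.83 and 4.62 with TWEAK in control lists, and 8.34 and 7.14 without and 6.68 and 8.54 with it in Fn14KO lists. The treated control lists lay below the untreated ones, with a change of -0.61 ± 0.11 (adjusted p = 6.3e-05) and an interaction of -0.56 ± 0.16 (adjusted p = 0.00690). SMAD7 region 9, at chr18:48996349-48999525, 45.4 kb upstream, had a fold enrichment of 16.9 and 19.6 without and 12.8 and 12.2 with TWEAK in MDA-MB-231 control lists, and of 11.8 and 11.3 without and 12.3 and 9.03 with it in Fn14KO lists. Hs578T gave 12.8 and 11.7 without and 7.63 and 8.76 with TWEAK in control lists, and 15.1 and 14.1 without and 12.9 and 15.3 with it in Fn14KO lists. In both lines the treated control lists again lay below the untreated ones. The change was -0.63 ± 0.08 (adjusted p = 1e-06) in control and -0.06 ± 0.08 (adjusted p = 1.00) in Fn14KO cells, and the interaction was -0.57 ± 0.12 (adjusted p = 0.00062).

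SKIL, also called SnoN, encodes a co-repressor of the SMAD complex. Peaks in the SKIL window covered 3.21 and 3.89 kb without and 3.55 and 3.43 kb with TWEAK in MDA-MB-231 control lists, and 4.15 and 4.17 kb without and 4.43 and 4.17 kb with it in Fn14KO lists. Hs578T gave 5.49 and 4.02 kb without and 3.56 and 3.85 kb with TWEAK in control lists, and 5.13 and 5.66 kb without and 4.81 and 4.36 kb with it in Fn14KO lists. The groups of control cells overlapped in MDA-MB-231, and in Hs578T the treated control lists lay below the other 6. The change in control cells was -0.15 ± 0.09 (adjusted p = 0.309). The SKIL window held 2 to 4 peaks per list with a highest fold enrichment of 11.0 to 23.9, and the start site had 2336 to 3148 bp of peak with a fold enrichment of 11.0 to 23.9. TGFBI encodes a secreted matrix protein whose expression TGF-beta induces. Peaks in the TGFBI window covered 12.9 and 14.9 kb without and 11.7 and 12.2 kb with TWEAK in MDA-MB-231 control lists, and 14.6 and 13.1 kb without and 12.1 and 13.7 kb with it in Fn14KO lists. Hs578T gave 15.9 and 14.02 kb without and 10.8 and 11.96 kb with TWEAK in control lists, and 16.3 and 15.3 kb without and 15.7 and 16.5 kb with it in Fn14KO lists. In control cells of both lines the treated lists lay below the untreated ones. The change was -0.29 ± 0.08 (adjusted p = 0.0199) in control and -0.04 ± 0.08 (adjusted p = 1.00) in Fn14KO cells, and the interaction, -0.25 ± 0.11 (adjusted p = 0.241), did not pass. The call was lost without any 1 of 5 lists, MDA-MB-231 control untreated replicate 2, MDA-MB-231 control TWEAK replicate 1 or 2, Hs578T control untreated replicate 1 or Hs578T control TWEAK replicate 1 (adjusted p = 0.0522 to 0.0965). It was also lost with the stronger q values alone, at -0.16 (adjusted p = 0.386), and by number of peaks, where the value turned to 0.00299 (adjusted p = 1.00). Its window held 9 to 12 peaks per list, with a highest fold enrichment of 9.58 to 15.5.

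The TGFBI regions also moved in both directions. TGFBI region 3, at chr5:136011067-136013005, 15.98 kb upstream, had a fold enrichment of 3.45 and 5.06 without and 6.46 and 8.16 with TWEAK in MDA-MB-231 control lists, and of 5.22 and 4.61 without and 4.92 and 4.78 with it in Fn14KO lists. Hs578T gave 4.71 and 4.17 without and 7.21 and 8.16 with TWEAK in control lists, and 3.85 and 4.13 without and 4.59 and 4.58 with it in Fn14KO lists. Treated control lists lay above untreated ones in both lines. The change was 0.72 ± 0.10 (adjusted p = 3.1e-06) in control and 0.13 ± 0.10 (adjusted p = 1.00) in Fn14KO cells, with an interaction of 0.59 ± 0.15 (adjusted p = 0.00295). TGFBI region 7, at chr5:136035424-136038578, 6.44 kb into the gene, had a fold enrichment of 14.6 and 15.5 without and 9.58 and 10.6 with TWEAK in MDA-MB-231 control lists, and of 14.4 and 10.7 without and 12.2 and 10.3 with it in Fn14KO lists. Hs578T gave 11.9 and 11.2 without and 8.30 and 10.01 with TWEAK in control lists, and 13.6 and 12.6 without and 13.8 and 13.3 with it in Fn14KO lists. Here the treated control lists lay below the untreated ones, with a change of -0.53 ± 0.08 (adjusted p = 3.9e-06) and an interaction of -0.52 ± 0.11 (adjusted p = 0.00069).

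TGFBI region 10, at chr5:136051857-136054686, 22.9 kb into the gene, had a fold enrichment of 9.55 and 11.9 without and 7.38 and 8.63 with TWEAK in MDA-MB-231 control lists, and of 11.7 and 8.46 without and 9.75 and 8.32 with it in Fn14KO lists. Hs578T gave 12.1 and 10.7 without and 7.95 and 8.94 with TWEAK in control lists, and 12.8 and 13.2 without and 13.1 and 13.5 with it in Fn14KO lists. The treated control lists lay below the untreated ones. It changed by -0.50 ± 0.08 (adjusted p = 2.1e-05), and its interaction, -0.48 ± 0.12 (adjusted p = 0.00250), missed the threshold when lists were not centred (adjusted p = 0.0604). TGFBI region 11, at chr5:136057107-136059683, fell by 0.39 on the log2 scale (adjusted p = 0.00150), with overlapping control groups in Hs578T and an interaction of -0.26 ± 0.14 (adjusted p = 0.140), which did not pass.

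The other 13 TWEAK calls in control cells ran from 0.20 to 0.40 in size and each rested on at least 1 list. Of them, 5 lay over start sites, where TGFB1, TGFB2, SMAD2, SMAD3 and SMAD7 fell, and all 5 were lost without centring the lists. The other start-site regions with a peak in every list did not pass, at 0.15 for SKIL, 0.09 for INHBA, -0.01 for TGFBR2 and -0.07 for TGFBR1. How often start-site regions fell among all regions was not counted. Changes are on the log2 scale. TGFB1 region 6, over the start site, fell by 0.30 (adjusted p = 0.0226), a call lost on leaving out MDA-MB-231 control untreated replicate 1, MDA-MB-231 control TWEAK replicate 1 or 2 or Hs578T control TWEAK replicate 1 (adjusted p = 0.0508 to 0.139). TGFB2 region 2, over the start site, fell by 0.22 (adjusted p = 0.0226), a call lost on leaving out MDA-MB-231 control untreated replicate 2, MDA-MB-231 control TWEAK replicate 1, Hs578T control untreated replicate 1 or Hs578T control TWEAK replicate 1 (adjusted p = 0.0629 to 0.0874). TGFB2 region 15, downstream of the gene, fell by 0.24 (adjusted p = 0.0308), a call lost on leaving out MDA-MB-231 control untreated replicate 1 or 2, MDA-MB-231 control TWEAK replicate 1 or 2, Hs578T control untreated replicate 1 or Hs578T control TWEAK replicate 1 (adjusted p = 0.0563 to 0.142). INHBA region 2, in the gene, rose by 0.31 (adjusted p = 0.0399), a call lost on leaving out MDA-MB-231 control untreated replicate 2, MDA-MB-231 control TWEAK replicate 1, Hs578T control untreated replicate 1 or 2 or Hs578T control TWEAK replicate 1 (adjusted p = 0.0696 to 0.172). TGFBR2 region 8, in the gene, rose by 0.20 (adjusted p = 0.0479), a call lost on leaving out MDA-MB-231 control untreated replicate 2, MDA-MB-231 control TWEAK replicate 2, Hs578T control untreated replicate 1, Hs578T control TWEAK replicate 1 or 2 or Hs578T Fn14KO untreated replicate 1 or 2 (adjusted p = 0.05022 to 0.181). SMAD2 region 2, over the start site, fell by 0.29 (adjusted p = 0.00691), a call lost on leaving out Hs578T control TWEAK replicate 2 (adjusted p = 0.0797). These are changes in the ligand, receptor and SMAD2 windows, and 4 of the 6 fell.

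SMAD3 region 1, upstream, fell by 0.38 (adjusted p = 0.00776), a call lost on leaving out MDA-MB-231 control TWEAK replicate 2 (adjusted p = 0.0562). SMAD3 region 3, upstream, rose by 0.32 (adjusted p = 0.0300), a call lost on leaving out MDA-MB-231 control untreated replicate 2, MDA-MB-231 control TWEAK replicate 1, Hs578T control untreated replicate 1 or Hs578T control TWEAK replicate 2 (adjusted p = 0.0821 to 0.223). SMAD3 region 5, over the start site, fell by 0.28 (adjusted p = 0.0245), a call lost on leaving out MDA-MB-231 control untreated replicate 1, MDA-MB-231 control TWEAK replicate 2, Hs578T control untreated replicate 1 or Hs578T control TWEAK replicate 2 (adjusted p = 0.0641 to 0.112). SMAD3 region 15, at the end of the gene, rose by 0.29 (adjusted p = 0.0334), a call lost on leaving out MDA-MB-231 control untreated replicate 2, MDA-MB-231 control TWEAK replicate 1, Hs578T control untreated replicate 2 or Hs578T control TWEAK replicate 1 or 2 (adjusted p = 0.0676 to 0.178). SMAD7 region 3, over the start site, fell by 0.28 (adjusted p = 0.0245), a call lost on leaving out MDA-MB-231 control untreated replicate 1, MDA-MB-231 control TWEAK replicate 2, Hs578T control untreated replicate 2 or Hs578T control TWEAK replicate 2 (adjusted p = 0.0802 to 0.183). SMAD7 region 6, upstream, fell by 0.40 (adjusted p = 0.00562), a call lost on leaving out MDA-MB-231 control untreated replicate 1 (adjusted p = 0.05003). SKIL region 1, upstream, fell by 0.28 (adjusted p = 0.0358), a call lost on leaving out MDA-MB-231 control untreated replicate 1, MDA-MB-231 control TWEAK replicate 1, Hs578T control untreated replicate 2 or Hs578T control TWEAK replicate 1 (adjusted p = 0.0890 to 0.179). Without centring the lists, 7 of the 13 calls were lost, TGFB1 region 6, TGFB2 region 2, TGFB2 region 15, SMAD2 region 2, SMAD3 region 5, SMAD7 region 3, SKIL region 1.

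Untreated Fn14KO and control cells were also compared. Any other difference between the edited and the control cells of a line goes with genotype and cannot be told apart from loss of Fn14. By covered length 0 of 10 genes passed the limma test, against 0.476% of all genes, with 1 of 10 and 1606 of all at an unadjusted p under 0.05. Their median difference, Fn14KO minus control, was -0.01, against -0.02 over all genes. By fold enrichment 6 of 53 regions passed, 2 higher and 4 lower, 11.3% against 9.02% of all regions. SMAD7 region 3 was lower in Fn14KO cells, with a difference of -0.47 on the log2 scale (adjusted p = 0.00518), a call kept whichever list was left out. Cover within 2 kb of that start site went the other way in untreated Hs578T, 3036 and 1812 bp in control and 4001 bp in both Fn14KO lists. In untreated MDA-MB-231 it overlapped, with 2032 and 2956 bp in control and 1588 and 2395 bp in Fn14KO lists. TGFB1 region 3 was lower in Fn14KO cells, with a difference of -0.43 on the log2 scale (adjusted p = 0.0135), a call lost on leaving out MDA-MB-231 control untreated replicate 1, MDA-MB-231 Fn14KO untreated replicate 2, Hs578T control untreated replicate 1 or Hs578T Fn14KO untreated replicate 1 (adjusted p = 0.05004 to 0.0947). TGFB1 region 5 was lower in Fn14KO cells, with a difference of -0.29 on the log2 scale (adjusted p = 0.0198), a call lost on leaving out MDA-MB-231 control untreated replicate 1, MDA-MB-231 Fn14KO untreated replicate 2, Hs578T control untreated replicate 1 or Hs578T Fn14KO untreated replicate 1 or 2 (adjusted p = 0.05043 to 0.107). These are the inhibitor's start site and the regions of the TGFB1 window that TWEAK lowered most. TGFB1 region 3 lies inside the neighbour HNRNPUL1, outside TGFB1, and TGFB1 region 5 inside both TGFB1 and CCDC97. Each difference is a mean over both lines. At TGFB1 region 3 and TGFB1 region 5 only MDA-MB-231 was lower, as the values by line below show.

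SMAD2 region 2 was lower in Fn14KO cells, with a difference of -0.32 on the log2 scale (adjusted p = 0.0195), a call lost on leaving out MDA-MB-231 control untreated replicate 1, MDA-MB-231 Fn14KO untreated replicate 1, Hs578T control untreated replicate 1 or Hs578T Fn14KO untreated replicate 1 (adjusted p = 0.0550 to 0.0944). TGFBR1 region 1 was higher in Fn14KO cells, with a difference of 0.38 on the log2 scale (adjusted p = 0.0120), a call lost on leaving out MDA-MB-231 Fn14KO untreated replicate 2, Hs578T control untreated replicate 2 or Hs578T Fn14KO untreated replicate 2 (adjusted p = 0.0503 to 0.0618). TGFBR2 region 11 was higher in Fn14KO cells, with a difference of 0.41 on the log2 scale (adjusted p = 0.0160), a call lost on leaving out MDA-MB-231 control untreated replicate 1, MDA-MB-231 Fn14KO untreated replicate 1, Hs578T control untreated replicate 1 or Hs578T Fn14KO untreated replicate 1 (adjusted p = 0.0645 to 0.110). The calls at TGFBR1 region 1 and TGFBR2 region 11 were also lost when lists were not centred (adjusted p = 0.0832 and 0.0613). In TWEAK-treated cells SMAD7 and TGFBI had more covered length in Fn14KO than in control cells, by 0.29 and 0.28, and TGFBR1 had less, with a difference of -0.27, all on the log2 scale. That is 3 of 10 genes against 18.4% of all, and these lists are the ones the TWEAK comparison in control cells already used.

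The genotype difference was next compared between the lines. By covered length 0 of 10 genes differed between the lines in it by limma, against 0.47% of all genes, with 1 of 10 and 1938 of all at an unadjusted p under 0.05. By fold enrichment in untreated MDA-MB-231, 14 of 53 regions differed between Fn14KO and control, against 23.6% of all regions, and in untreated Hs578T 0 of 53, against 2.46%, with 6 of 53 at an unadjusted p under 0.05. The difference between the lines, tested as an interaction, passed at 8 of 53 regions, 3 higher and 5 lower in MDA-MB-231, 15.1% against 17.1% of all, so the windows did not stand out by this count. TGFB1 region 3 differed by -1.07 ± 0.15 (adjusted p = 3.9e-05) in MDA-MB-231 and 0.20 ± 0.15 (adjusted p = 0.550) in Hs578T, and the difference between the lines was -1.27 ± 0.21 (adjusted p = 0.00039). TGFB1 region 5 differed by -0.66 ± 0.11 (adjusted p = 0.00017) in MDA-MB-231 and 0.08 ± 0.11 (adjusted p = 0.792) in Hs578T, and the difference between the lines was -0.73 ± 0.15 (adjusted p = 0.00235). SMAD7 region 9 differed by -0.44 ± 0.12 (adjusted p = 0.00948) in MDA-MB-231 and 0.22 ± 0.12 (adjusted p = 0.355) in Hs578T, and the difference between the lines was -0.67 ± 0.17 (adjusted p = 0.00867). These 3 regions, which fell with TWEAK in control cells, were lower in the Fn14KO lists of MDA-MB-231 already without TWEAK.

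TGFBR2 region 7 differed by 0.63 ± 0.16 (adjusted p = 0.00571) in MDA-MB-231 and -0.44 ± 0.16 (adjusted p = 0.146) in Hs578T, and the difference between the lines was 1.07 ± 0.22 (adjusted p = 0.00227). TGFBR2 region 7, 21.6 kb into the gene, had a fold enrichment of 5.46 and 7.27 in untreated control and 9.14 and 7.77 in untreated Fn14KO lists of MDA-MB-231, and in Hs578T it had 6.32 and 5.60 in untreated control and 3.91 and 5.16 in untreated Fn14KO lists. Its TWEAK change in control cells was 0.11 ± 0.11 (adjusted p = 0.437), which did not pass. TGFB1 region 8 differed by 0.11 ± 0.14 (adjusted p = 0.599) in MDA-MB-231 and -0.50 ± 0.14 (adjusted p = 0.0596) in Hs578T, and the difference between the lines was 0.62 ± 0.20 (adjusted p = 0.0371). TGFBI region 3 differed by 0.44 ± 0.15 (adjusted p = 0.0320) in MDA-MB-231 and -0.18 ± 0.15 (adjusted p = 0.587) in Hs578T, and the difference between the lines was 0.62 ± 0.21 (adjusted p = 0.0407). The last 2 lost the call when lists were not centred, with 0.37 (adjusted p = 0.250) and 0.38 (adjusted p = 0.263), while the other 6 kept it. TGFB1 region 8 and TGFBI region 3 also lost it with the replicate block (adjusted p = 0.0550 and 0.0507). SMAD3 region 4 and SMAD3 region 7 made up the 8, with differences between the lines of -0.51 ± 0.16 (adjusted p = 0.0277) and -0.45 ± 0.15 (adjusted p = 0.0364). Of the 8 calls, 4 were kept whichever list was left out, at TGFB1 region 3, TGFB1 region 5, SMAD7 region 9 and TGFBR2 region 7. The other 4 were all lost without MDA-MB-231 control untreated replicate 1 and without MDA-MB-231 Fn14KO untreated replicate 2, the list with the fewest peaks, and each also without 2 to 4 other untreated lists. The MDA-MB-231 Fn14KO lists are those with the lowest median −log10 q, and the part of that in these differences was not tested.

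**Figure D4:**
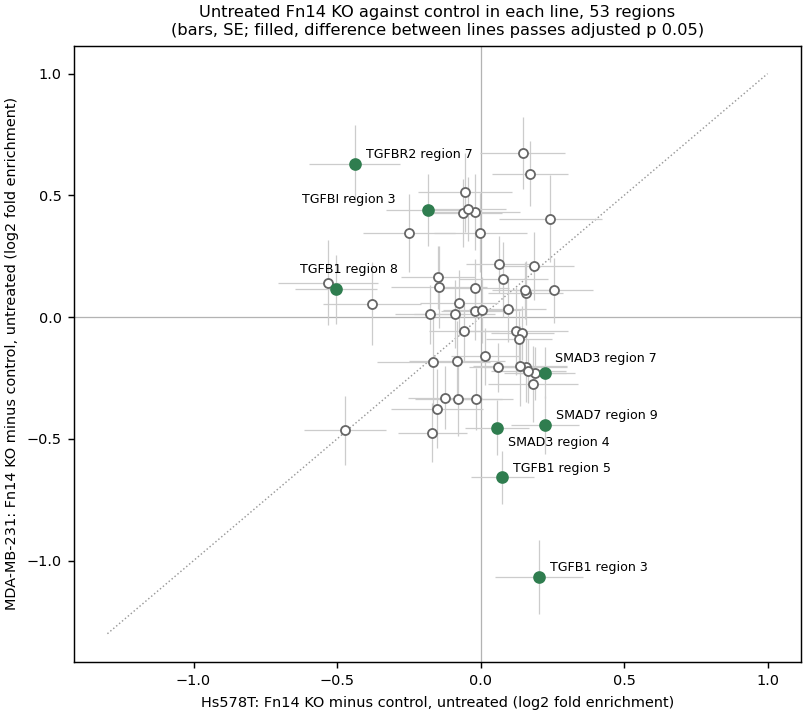
Difference in fold enrichment between untreated Fn14KO and control cells (log2, Fn14KO minus control) in Hs578T on the x axis and in MDA-MB-231 on the y axis, 1 point for each of 53 regions with bars of 1 standard error, filled for the 8 where the difference between the lines passed the test, and a dotted line of equality. TGFB1 region 3 lay at -1.07 in MDA-MB-231 and 0.20 in Hs578T, and TGFBR2 region 7 at 0.63 and -0.44.

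Between the lines, 7 of 10 genes differed in covered length over the 8 lists of each, 1 higher and 6 lower in MDA-MB-231, against 52.3% of all genes (3.11% higher, 49.2% lower). MDA-MB-231 lists covered less, with a median over all genes of -0.17, and after centring each list on its median 49.0% of the 6712 calls were higher in MDA-MB-231 against 5.95% of the 8689 without it. Differences in covered length are therefore given here relative to that median. Those in highest fold enrichment are plain MDA-MB-231 minus Hs578T differences, not set against a median. TGFBR1 stood 0.46 above it and kept its call with centred lists (adjusted p = 3.9e-07). SMAD7 (-0.21), SMAD3 (-0.14), TGFBR2 (-0.14) and TGFB2 (-0.11) lay below the median and also kept theirs, with adjusted p from 0.00041 to 0.0393. Without centring, TGFBR1 lost its limma call in the 10 kb window (adjusted p = 0.884), by start-site cover (adjusted p = 0.566) and by number of peaks (adjusted p = 0.370). The other genes just named lost theirs by start-site cover and by number of peaks. By highest fold enrichment in the window, SMAD3 (-0.07, adjusted p = 0.307) and TGFBR2 (-0.02, adjusted p = 0.749) did not pass. TGFB1 (0.03) and SKIL (-0.03) lay near the median and lost the call with centred lists, and by highest fold enrichment in the window SKIL passed in the opposite direction, at 0.36 (adjusted p = 8.5e-05), while TGFB2 and SMAD7 turned to 0.12 and 0.10 and did not pass. Even as first tested, TGFB1 lost it without any 1 of 12 lists, MDA-MB-231 control untreated replicate 1, MDA-MB-231 control TWEAK replicate 1 or 2, MDA-MB-231 Fn14KO untreated replicate 2, MDA-MB-231 Fn14KO TWEAK replicate 1 or 2, Hs578T control untreated replicate 1, Hs578T control TWEAK replicate 1 or 2, Hs578T Fn14KO untreated replicate 1 or 2 or Hs578T Fn14KO TWEAK replicate 2, and SKIL without any 1 of 5, MDA-MB-231 control untreated replicate 1, Hs578T control untreated replicate 1, Hs578T control TWEAK replicate 2, Hs578T Fn14KO untreated replicate 2 or Hs578T Fn14KO TWEAK replicate 1.

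By fold enrichment 24 of 53 regions differed between the lines, 14 higher and 10 lower in MDA-MB-231, 45.3% against 58.9% of all regions. The lowest difference among the 53, MDA-MB-231 minus Hs578T, was at SMAD7 region 8, -0.43 ± 0.08 (adjusted p = 4.3e-05), and the highest at TGFB1 region 4, 0.48 ± 0.07 (adjusted p = 1.6e-06), followed by TGFBR2 region 7 and SKIL region 3 at 0.48 and 0.46. SMAD7 region 8, upstream at chr18:48992955-48995019, had a fold enrichment of 3.66 to 6.496 with a median of 4.24 in the 8 MDA-MB-231 lists and of 3.83 to 8.54 with a median of 6.86 in the 8 Hs578T lists. TGFB1 region 4, at chr19:41306601-41311385, lies inside TGFB1 but 42.5 kb from its start, and over the start site of the neighbour CCDC97. It had 7.67 to 11.4 with a median of 10.7 in MDA-MB-231 and 6.56 to 8.93 with a median of 7.599 in Hs578T. The difference may thus belong to CCDC97. None of the 92 regions was present in all 8 lists of 1 line and absent from all 8 of the other, a pattern that held for 0.152% and 0.328% of all regions.

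A region was counted as gained when both treated lists of a line and genotype and neither untreated list had a peak, and as lost in the reverse case. Of the 92 regions, MDA-MB-231 control cells gained 3 (against 5.58% of all regions) and lost 2 (4.49%), and Hs578T control cells gained 2 (5.09%) and lost 4 (4.65%). TGFBR1 region 4 and SMAD3 region 14 were gained in both lines (2.48% of all regions), and no region was lost in both (1.34%). The losses were TGFBR2 region 12 and SMAD3 region 16 in MDA-MB-231, and TGFB2 region 6, TGFB2 region 13, SMAD2 region 3 and SKIL region 2 in Hs578T. In Fn14KO cells MDA-MB-231 gained 2 (0.321%) and lost 1 (1.35%), and Hs578T gained 0 (1.05%) and lost 1 (0.829%). With counts this small, none of them was set apart from the share of all regions by a test.

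Presence was also compared between genotypes, as regions with a peak in both lists of 1 genotype and in neither of the other. In untreated MDA-MB-231, 2 of the 92 regions were seen in Fn14KO lists alone (2.14% of all regions) and 1 in control lists alone (2.08%). With TWEAK the counts were 2 (3.21%) and 3 (6.21%). In Hs578T they were 3 (2.02%) and 2 (2.25%) without TWEAK, and 8 (6.55%) and 2 (6.93%) with it. Of those 8, TGFB2 held 4, regions 3, 4, 6 and 13, TGFBI held regions 6 and 8, and TGFB1 region 1 and SMAD3 region 16 made up the rest. SKIL region 4 was seen in Fn14KO lists alone in MDA-MB-231, both without and with TWEAK, and in control lists alone in untreated Hs578T. These counts were not tested against the shares of all regions.

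For the wider pathway, 44 other genes of the TGF-beta superfamily were listed, among them ligands and traps, receptors, SMADs, regulators and targets, and 41 could be tested. The list was drawn up with earlier results of these data known. Its calls come from the main fit alone, without the alternatives or leaving out lists. Start sites of other genes in these windows were not counted. With TWEAK in control cells 1 rose and 13 fell, 34.1% against 18% of all genes, with a median change of -0.16 against -0.05. Whether these shares differ was not tested. In Fn14KO cells none passed with limma, as for all genes above. The interaction was called for 5 genes, all lower in control cells, 12.2% against 4.63%. INHBB encodes the beta B subunit of activin. INHBB covered 10.2 and 11.9 kb untreated and 3.87 and 4.36 kb with TWEAK in MDA-MB-231 control lists and 12.03 and 13.5 kb and 4.76 and 5.17 kb in those of Hs578T, a change of -1.22 ± 0.10 (adjusted p = 3e-06), and the interaction with Fn14 genotype was -1.18 ± 0.14 (adjusted p = 0.00051). BMP4 encodes a bone morphogenetic protein. BMP4 covered 16.1 and 18.6 kb untreated and 7.32 and 7.38 kb with TWEAK in MDA-MB-231 control lists and 21.9 and 18.2 kb and 8.47 and 10.6 kb in those of Hs578T, a change of -1.07 ± 0.09 (adjusted p = 4.1e-06), and the interaction with Fn14 genotype was -0.99 ± 0.13 (adjusted p = 0.00076). PMEPA1 encodes a membrane protein that TGF-beta induces and that limits SMAD signalling. PMEPA1 covered 14.1 and 17.2 kb untreated and 8.79 and 9.09 kb with TWEAK in MDA-MB-231 control lists and 10.1 and 9.20 kb and 5.12 and 5.52 kb in those of Hs578T, a change of -0.75 ± 0.08 (adjusted p = 3.8e-05), and the interaction with Fn14 genotype was -0.76 ± 0.11 (adjusted p = 0.00200). All treated control lists of these genes lay below the untreated ones in both lines. The genes were picked for the largest falls in those same lists, so this order adds no support. SMAD6, the inhibitory SMAD of the BMP arm, changed by -0.60 ± 0.10 (adjusted p = 0.00082), with an interaction of -0.55 ± 0.14 (adjusted p = 0.0347). The gene that rose was SMAD1, a BMP-regulated SMAD, by 0.31 ± 0.08 (adjusted p = 0.0138), and its interaction, 0.26 ± 0.11 (adjusted p = 0.220), did not pass.

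Genes whose covered length ran most like that of the 2 members with the greatest TWEAK changes were sought over the 16 lists by Pearson's r of log2(covered bp + 1000). For TGFBR1, among 16609 genes, these were DIPK2A (0.91), NUDT4B (0.91) and WDR64 (0.90). For SMAD7, among 16610, they were TBL1X (0.97), P3H4 (0.97) and CCNJL (0.97). The points share their lists, and with them line, genotype and whatever depth lay behind each, so the values describe a likeness of pattern only.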

How the data were processed

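H3K27ac ChIP-seq peak lists from 16 libraries of MDA-MB-231 and Hs578T cells were analysed, grouped by line, genotype and treatment as given in the sample titles. Per the study's methods and the submitters' processing notes, the authors trimmed reads with Trimmomatic, mapped them to hg38 with Bowtie2, called broad peaks per library with MACS2 against input and removed blacklisted regions. deepTools is also named, and versions were not given in the sources used here. In the deposited broad peak lists the authors' score column is a display score and was not used. The authors' MACS2 fold enrichment over input, the highest value among the peaks in a region, was used as deposited, and so were the −log10 q values the authors' caller wrote, which served to trim lists. The deposited −log10 p column was not used. Fold enrichment is a ratio to the library's own input and also moves with the strength of the immunoprecipitation, and covered length moves with how many peaks a list holds. A broad peak has a single fold enrichment for its whole length, which may also depend on its called width. The lists hold no reads, so depth is unknown, and no counting interval was given. The differential test named in the study's methods, DiffBind, needs reads and was not run.

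Sequence names and ends of all lists were checked against the hg38 reference. Covered length was summed over the gene body (GENCODE 44, protein-coding) extended by 50 kb and tested as log2(bp + 1000) with limma 3.58.1 (R 4.3.3), with empirical Bayes moderation and a mean-variance trend, for genes with a mean of at least 1000 bp. All 8 groups were fitted together without a replicate block, and two-sided p-values were adjusted by Benjamini-Hochberg over all genes tested, with a threshold of 0.05. Values after ± are standard errors of the log2 difference. The fit by region, for regions with a peak in every list, was chosen after seeing the data and is adjusted over all 28337 regions. The covered-length fit was tested on simulated data, and the fit by region was not. The 10 genes were named by rule, with up to 4 other pathway genes per direction by size among those that passed. Members and lists were chosen with earlier results of these data known. Alternatives were window size, measure, pseudocount, filter, trimming, centring, variance model, replicate block and leaving out each list.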

Additional observations from a re-analysis of the deposited data

Results flagged for a closer look

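Differences between groups passed a test of the difference itself, an interaction term in limma at an adjusted p under 0.05, for 1 gene and 21 region results. Values are differences of log2 changes. The TWEAK effect in control minus that in Fn14KO cells was 0.44 for the covered length of TGFBR1. For fold enrichment it was positive at 6 regions, 1.24 at TGFBR1 region 1, 0.78 at TGFBR2 region 10, 0.75 at TGFB1 region 8, 0.59 at TGFBI region 3, 0.37 at SMAD3 region 12 and 0.36 at SMAD3 region 7. It was negative at 7 regions, -1.74 at TGFB1 region 3, -0.99 at TGFB1 region 5, -0.57 at SMAD7 region 9, -0.56 at SMAD7 region 8, -0.55 at TGFBR2 region 14, -0.52 at TGFBI region 7 and -0.48 at TGFBI region 10.

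The Fn14KO minus control difference in untreated cells, MDA-MB-231 minus Hs578T, was positive at 3 regions, 1.07 at TGFBR2 region 7, 0.62 at TGFB1 region 8 and 0.62 at TGFBI region 3. It was negative at 5, -1.27 at TGFB1 region 3, -0.73 at TGFB1 region 5, -0.67 at SMAD7 region 9, -0.51 at SMAD3 region 4 and -0.45 at SMAD3 region 7. At TGFB1 regions 3, 5 and 8, SMAD7 region 9, TGFBI region 3 and SMAD3 region 7 both kinds of difference passed, and the comparisons share the untreated lists.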

How the results depend on the processing

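Only 2 lists stood behind each group, their depth is unknown, and signal below the peak caller's threshold is absent from the lists. Over the called results of single genes and regions, 1009 of 1104 region values and 137 of 176 gene values kept their direction and call when 1 list was left out, and the remaining 95 and 39 kept the direction and lost the call. Under the other alternatives 124 of 138 region values and 85 of 131 gene values kept both, 14 and 39 lost the call and 7 gene values reversed. The reversed log2 values were TGFBR1 with TWEAK, -0.0479 with the gene body extended by 10 kb and -0.00319 by covered length within 2 kb of the start site, TGFBI with TWEAK, 0.00299 by number of peaks, TGFB1 between the lines, 0.0333 with centred lists, and, by highest fold enrichment in the window, TGFB2 (0.12), SMAD7 (0.10) and SKIL (0.36) between the lines, of which SKIL passed the test. The interaction of TGFBR1 was lost under 6 of 12 alternatives, near the threshold with the windows extended by 100 kb (adjusted p = 0.0513) and with the replicate block (adjusted p = 0.0588), and with adjusted p from 0.470 to 0.956 under the other 4. Genes that passed only under an alternative were SMAD3, with centred lists, for TWEAK (0.12), the interaction (0.19) and genotype (0.16), SMAD7 for the interaction with centred lists (-0.29) and by highest fold enrichment (-0.42), SMAD2 for TWEAK in the 100 kb window (-0.45) and for genotype by highest fold enrichment (-0.38), TGFBR2 for TWEAK by highest fold enrichment (0.25), and TGFBI between lines in the 100 kb window (-0.17), leaving aside the fits without 1 list.

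Counts of genes called depended on the measure, and the cause was not tested. In the order TWEAK in control cells, TWEAK in Fn14KO cells, their interaction, genotype, line, and the TWEAK effect between lines, the counts were 2987, 0, 769, 79, 8689 and 0. Covered length within 2 kb of the start site gave 410, 4, 119, 23, 1923 and 12. Number of peaks gave 1344, 42, 175 for genotype, 2645 for line and 175 between lines. Highest fold enrichment gave 5869, 1, 4008, 4244 and, between lines, 30. Centred lists gave 5150, 2585 for the interaction, 654 for genotype and 1 between lines, and the share of TWEAK calls in control cells that were higher was 45.9% against 35.9% without centring. Peaks whose −log10 q reached the median of all lists gave 1597, 17, 459 and, between lines, 4. Lists trimmed to equal numbers gave 1315 for the interaction and 171 for genotype. A pseudocount of 100 bp gave 1 in Fn14KO cells and 5 between lines, no filter gave 17 between lines, the 100 kb window gave 121 for genotype and the 10 kb window 5694 for line. The counts of regions called for the TWEAK effect between lines were 2 both with lists not centred and with the replicate block, against 0.

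Samples share replicate numbers, but same-numbered lists did not deviate together, with correlations from -0.02 to 0.13 over the 4 treated and untreated pairs, so the pairing was not used. With the replicate block the genotype count was 38 in place of 79, and the counts for the other gene comparisons were 3151, 0, 818, 8285 and 0. Crossing the numbers of the MDA-MB-231 Fn14KO lists, a pairing added after seeing the data because that pair correlated at -0.19, gave 400.

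Leaving out 1 list gave 1723 to 4250, 0 to 1, 380 to 1980, 29 to 467, 7217 to 10662 and 0 to 2 genes, and 11532 to 13324, 0 to 1, 8024 to 8796, 1216 to 2536, 15733 to 16376 and 0 to 2 regions, in the order above. With 1 list of a group left out, a gain or loss has fewer lists to satisfy, and of the 92 regions the counts gained and lost ran from 3 to 8 and 2 to 6 in MDA-MB-231 control cells, from 2 to 6 and 2 to 4 in Fn14KO cells of that line, from 2 to 5 and 5 to 8 in Hs578T control cells and from 1 to 5 and 1 to 3 in its Fn14KO cells. Where peaks had to cover at least 0.5 of a region, losses were 5 in MDA-MB-231 control cells, 0 in its Fn14KO cells and 0 in those of Hs578T, and gains were 0 in MDA-MB-231 Fn14KO, 1 in Hs578T control and 1 in Hs578T Fn14KO cells. Windows extended by 100 kb lost 5 in MDA-MB-231 control, 2 in its Fn14KO and 8 in Hs578T control cells. Trimmed lists gave 0 gained in MDA-MB-231 Fn14KO, 2 gained in Hs578T Fn14KO and 1 lost in Hs578T control cells, and the median −log10 q threshold gave 0 gained and 0 lost in MDA-MB-231 Fn14KO and 2 lost in Hs578T control cells.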
